A study of Mus musculus with 11 samples.

Results

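The 3 lamin genes of the mouse, Lmna, Lmnb1 and Lmnb2, of 12393 genes named on the array, were read by 8 of the 20380 probe sets that carried a single gene symbol: 4 for Lmna, 2 for Lmnb1 and 2 for Lmnb2. Every probe set annotated to one of these symbols was taken, and each is described on its own. The genes were chosen because 1 Lmna probe set had differed most between the cultures, so the organ values of Lmna are given as a description without a test; Lmnb1 and Lmnb2 entered as the remaining members of the family. The samples were T cells of the B10.BR mouse strain kept for 4 days with dendritic cells (DCs) of the C57BL/6 strain, a pairing in which the T cells meet foreign major histocompatibility molecules. All 4 groups shared this pairing and differed in the organ from which the DCs came: liver, MLN and PLN with 3 arrays each (replicate numbers 2, 3 and 4) and spleen with 2 (numbers 3 and 4). MLN and PLN are kept as abbreviated in the labels; they usually stand for mesenteric and peripheral lymph node. No culture without DCs was analysed here, and the labels name neither the T cell subset nor separate animals or cultures behind the replicate numbers, so a p-value here weighs a difference against the scatter of these arrays alone, which may be technical.

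Lamins are intermediate filament proteins that form a meshwork under the inner nuclear membrane, where they set the stiffness of the nucleus and anchor chromatin, nuclear pores and the links to the cytoskeleton. The B-type lamins, from Lmnb1 and Lmnb2, keep a farnesyl anchor and are made in nearly all cells, and Lmnb1 transcripts are plentiful in dividing cells. The A-type lamins A and C are splice products of Lmna; they are scarce in resting lymphocytes and are induced when T cells are activated, and retinoic acid, a vitamin A product made by DCs of the gut and its draining nodes, is known to act on the Lmna promoter.

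RNA was measured on single-colour oligonucleotide arrays that give 1 intensity per probe set. Levels below are log2(intensity + 16) after quantile normalization across the 11 arrays, and deposited intensities are quoted where stated. The lamin probe sets spanned the range of the array. The Lmnb1 probe sets 1423521_at and 1423520_at had mean levels of 11.08 and 10.32, above 93.6% and 88.0% of the single-symbol probe sets. Lmnb2 was read at 7.48 by 1448531_at and at 7.43 by 1451849_a_at, close to the middle of the array. The Lmna probe set 1421654_a_at had a mean of 8.63 and 1425472_a_at of 7.29, whereas 1452212_at and 1426868_x_at, at 5.60 and 4.78, lay above only 22.5% and 9.54% of the probe sets. In the naming of these arrays the ending _a_at marks a probe set shared by transcripts of 1 gene and _x_at one whose probes may bind other transcripts. The 2 dim Lmna probe sets were drawn from one and the same cDNA in the annotation. Which of lamin A and lamin C each probe set reads was not analysed here, and since probe sets differ in brightness, no level is set against that of another probe set. The 12228 probe sets in the upper 60% by mean level were tested, which took in 6 of the 8 lamin probe sets and left out the 2 dim ones.

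Lmna was low in T cells cultured with MLN DCs and high with liver DCs. At 1421654_a_at the deposited intensities were 817.3, 917.3 and 513.1 in the liver cultures numbered 2, 3 and 4, and 149.3, 116 and 86 in the MLN cultures. PLN cultures had 493.5, 605.5 and 465.8, and spleen cultures 532.3 and 432.8 for numbers 3 and 4. All 3 MLN arrays lay below every other array, and the highest of them, 149.3, was far from the next value, 432.8. On the log2 scale the means were 9.54 ± 0.42 in liver, 9.07 ± 0.19 in PLN, 8.93 ± 0.21 in spleen and 7.09 ± 0.27 in MLN (SD; n = 3, and 2 for spleen). In this order the first 3 organs overlapped: liver arrays ran from 9.06 to 9.87, PLN from 8.90 to 9.28 and spleen from 8.78 to 9.07, whereas MLN ran from 6.85 to 7.38. The MLN mean was below the mean of the other organ means by -2.09 (SE 0.18), the most negative of 12228 differences, and the liver mean above its counterpart by 1.18 (SE 0.18). These 2 values are the ones that led to the choice of the gene. In total RNA, fewer cells expressing a gene and less RNA per cell cannot be told apart.

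**Figure D1:**
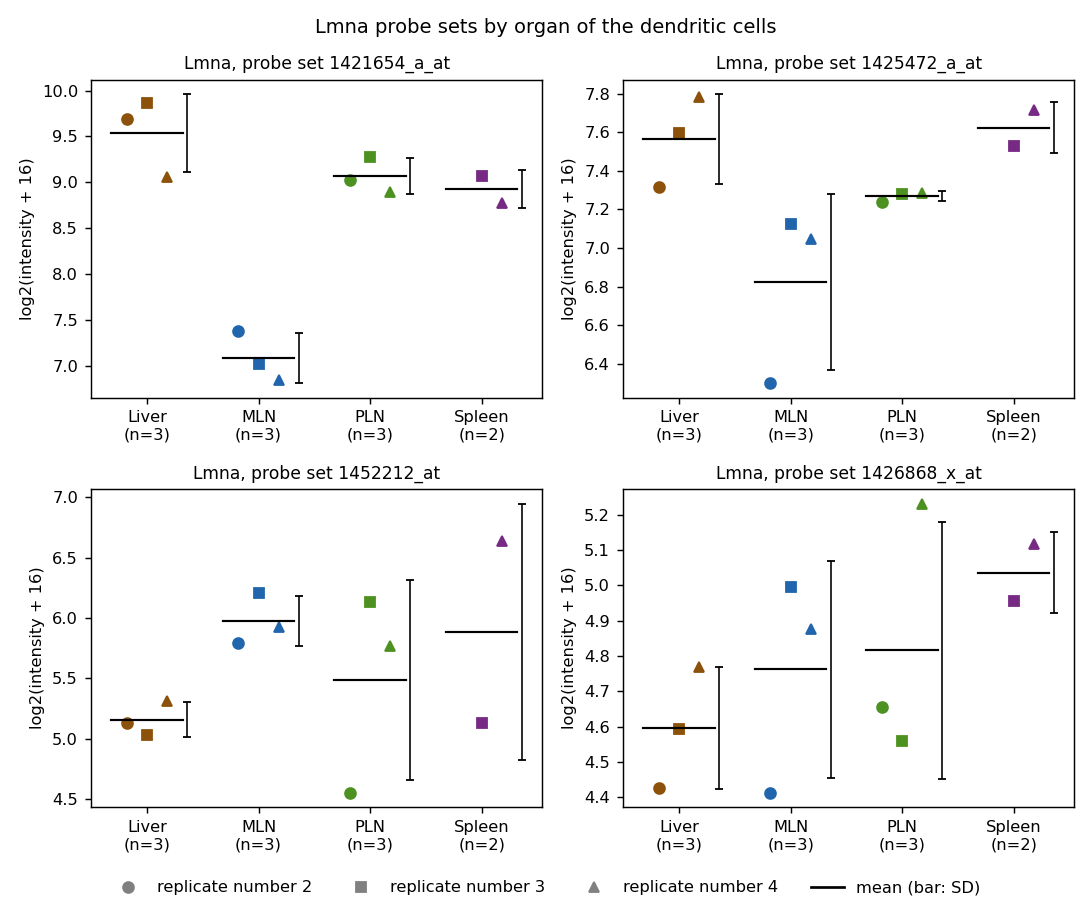
Levels of the 4 Lmna probe sets, as log2(intensity + 16) on the vertical axes, in T cells cultured with DCs of 4 organs; each point is 1 array with its replicate number as the symbol, lines are means and bars SD. At 1421654_a_at and 1425472_a_at the MLN arrays are all below every other array, and at the dim 1452212_at and 1426868_x_at they are not.

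The second Lmna probe set, 1425472_a_at, was also lowest with MLN DCs, but by less. Its intensities were 61.4, 124.9 and 102.9 in MLN cultures numbered 2, 3 and 4, against 149.4, 178.7 and 196 in liver, 128.2, 133.3 and 151 in PLN, and 175.3 and 208.7 in spleen. The MLN arrays again lay below all others after normalization, at 6.30 to 7.13 against 7.24 or more, although the margin between the MLN culture numbered 3 and the lowest PLN array was small. Of all tested probe sets, 0.613% had MLN arrays wholly below the rest; this is given only as the background, since the gene was chosen on that contrast. Spleen stood at 7.62 ± 0.13, liver at 7.57 ± 0.23, PLN at 7.27 ± 0.03 and MLN at 6.82 ± 0.46. Spleen thus had the highest mean here and lay below liver and PLN at the brighter probe set, with liver and spleen overlapping at both. MLN differed from the other organs by -0.66 (SE 0.19) and liver by 0.33 (SE 0.19).

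The 2 dim Lmna probe sets did not follow this pattern. At 1452212_at the intensities ran from 7 to 97.5, and MLN cultures, at 38.8, 58.9 and 37.2, were not low: liver had 18.2, 15.3 and 21.1, PLN 7, 50.1 and 45.5, and spleen 21.2 and 97.5. MLN was above the mean of the other organs by 0.47 and liver below by -0.62, with SDs of 0.83 in PLN and 1.06 in spleen. At 1426868_x_at all intensities were between 5.2 and 25.9, around the 16 added before taking logarithms, and MLN differed by -0.05. Neither probe set entered the test, and the log2 scale with 16 added compresses changes at such intensities.

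Within each replicate number the order at 1421654_a_at was the same at both ends. MLN was the lowest and liver the highest in each of the 3 numbers, and PLN was above spleen in both numbers that hold spleen. MLN lay below the mean of the other organs of its number by -1.97, -2.38 and -2.06 in numbers 2, 3 and 4, and liver above by 1.48, 1.41 and 0.88. At 1425472_a_at the MLN values were -0.98, -0.34 and -0.55, so MLN was lowest in each number there too, and the liver values 0.55, 0.28 and 0.43. The difference at the brighter probe set thus varied little between numbers, while at 1425472_a_at it was widest in number 2.

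**Figure D2:**
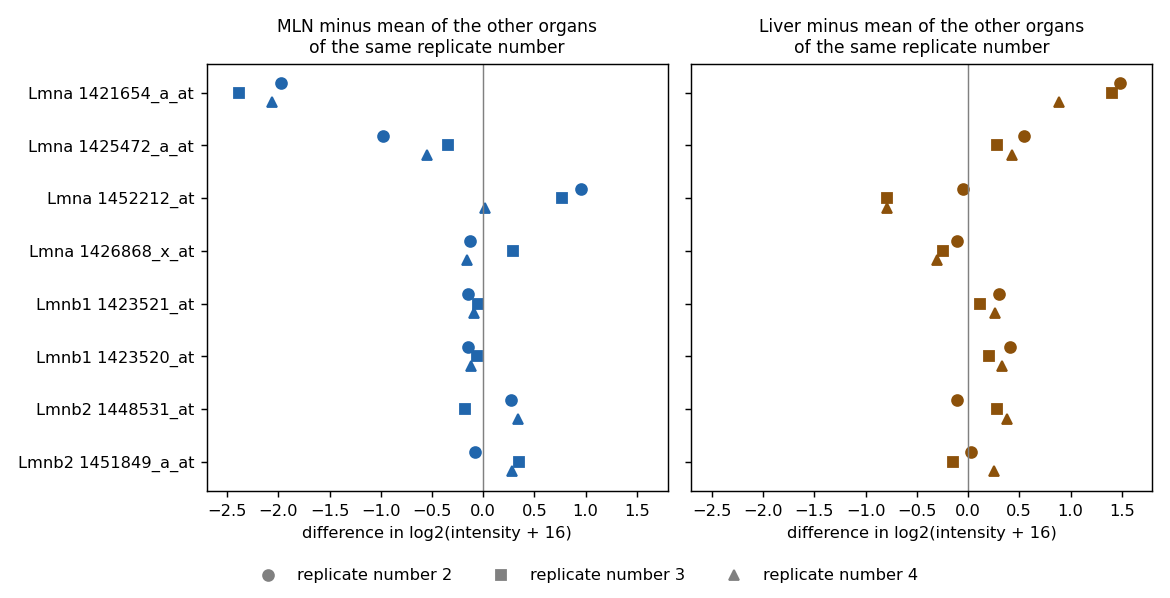
Difference in log2(intensity + 16), on the horizontal axes, of the MLN (left) and liver (right) array from the mean of the other organs' arrays of the same replicate number, for each lamin probe set; symbols give the number. The MLN points of 1421654_a_at lie at -2.38 to -1.97, and those of the B-type lamins within 0.35 of zero.

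Replicate numbers also differed from each other, a contrast that played no part in the choice of the genes. With the organ in the model, 1421654_a_at fell by 0.41 (SE 0.12) from number 3 to number 4 (limma adjusted p = 0.0180) and differed by 0.01 (SE 0.14) between numbers 2 and 3 (limma adjusted p = 0.986). The change between numbers 3 and 4 was called for 40.1% of the tested probe sets, 21.3% lower as here, so this call is a common one. It was lost without the liver array numbered 3 (adjusted p = 0.0808), the liver array numbered 4 (0.0761) or the PLN array numbered 3 (0.0643), and in a model without the organ (0.652). The other tested Lmna probe set, 1425472_a_at, had 0.07 (SE 0.15) between numbers 3 and 4 (limma adjusted p = 0.731). Of the 6 tested lamin probe sets 1 passed the F-test over the numbers (limma adjusted p = 0.0261 for 1421654_a_at), against 44.3% of all tested probe sets. The B-type lamins gave limma adjusted p from 0.116 to 0.965 in that F-test.

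Lmnb1, which encodes lamin B1, was highest on average with liver DCs, and the difference did not pass the test. At 1423520_at the intensities were 1509.5, 1415.8 and 1523.6 in liver, 1175.4, 1213.9 and 1190.5 in MLN, 1107.8, 1342 and 1123.9 in PLN, and 1138.2 and 1265.1 in spleen. The liver arrays were all above every other array, as held for 0.638% of the tested probe sets. Mean levels were 10.55 ± 0.07 in liver, 10.25 ± 0.03 in MLN, 10.24 ± 0.13 in PLN and 10.24 ± 0.14 in spleen. Liver differed from the other organs by 0.31 (SE 0.09; 95% interval 0.10 to 0.52), and limma gave an adjusted p = 0.99997 over all tested probe sets. With the replicate number as a block the 95% interval was 0.14 to 0.48 and the limma adjusted p 0.0788. The other Lmnb1 probe set, 1423521_at, had 2437.3, 2138.6 and 2662.1 in liver, 1998.1, 1983 and 2235.9 in MLN, 2018.4, 2064.5 and 2011.8 in PLN, and 1932.1 and 2307.7 in spleen. Here the liver arrays overlapped with those of spleen and MLN after normalization. Liver differed by 0.22 (SE 0.09; 95% interval 0.01 to 0.42; limma adjusted p = 0.99997). With the block the 95% interval was 0.08 to 0.35 and the limma adjusted p 0.131. Within every replicate number liver was nonetheless the highest organ at both Lmnb1 probe sets, above the mean of the others by 0.12 to 0.40.

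In MLN cultures, where Lmna was low, Lmnb1 differed from the other organs by -0.10 (SE 0.09; 95% interval -0.30 to 0.11) at 1423520_at and by -0.09 (SE 0.09; 95% interval -0.30 to 0.12) at 1423521_at. These intervals are not adjusted for the number of probe sets. The Lmna probe sets stood at -2.09 for 1421654_a_at, -0.66 for 1425472_a_at, and 0.47 and -0.05 for the 2 dim ones. Since the -2.09 led to the choice of Lmna, the intervals are not set against it. A contrast between the genes was not tested. In limma's F-test over the 4 organs, which called 0.0164% of the tested probe sets, the adjusted p was 0.9999 at both Lmnb1 probe sets, and 0.217 and 0.276 with the block, where 0.801% were called.

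Lmnb2, which encodes lamin B2, did not pass the test between organs at either probe set. At 1448531_at intensities ran from 158.8 to 195.4 in liver, 149.3 to 182.3 in MLN, 130.4 to 154 in PLN and 158.8 to 164.7 in spleen. At 1451849_a_at the ranges were 136.4 to 192, 141.7 to 190, 130.3 to 160.1 and 148.6 to 161.1. As deposited, the PLN arrays of 1448531_at were all below the liver and spleen arrays. After quantile normalization every pair of organs overlapped at both probe sets; at 1448531_at PLN ran from 7.07 to 7.46 and liver from 7.40 to 7.76. MLN differed from the other organs by 0.14 (SE 0.14; 95% interval -0.17 to 0.46) at the first and 0.19 (SE 0.15; 95% interval -0.13 to 0.51) at the second. Both intervals span both signs, so no direction is read from them. Within numbers 2, 3 and 4 the MLN values were 0.27, -0.18 and 0.34 at the first. At the second they were -0.08, 0.35 and 0.28. The limma adjusted p of the F-test was 0.9999 at both, and 0.621 and 0.726 with the block.

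**Figure D3:**
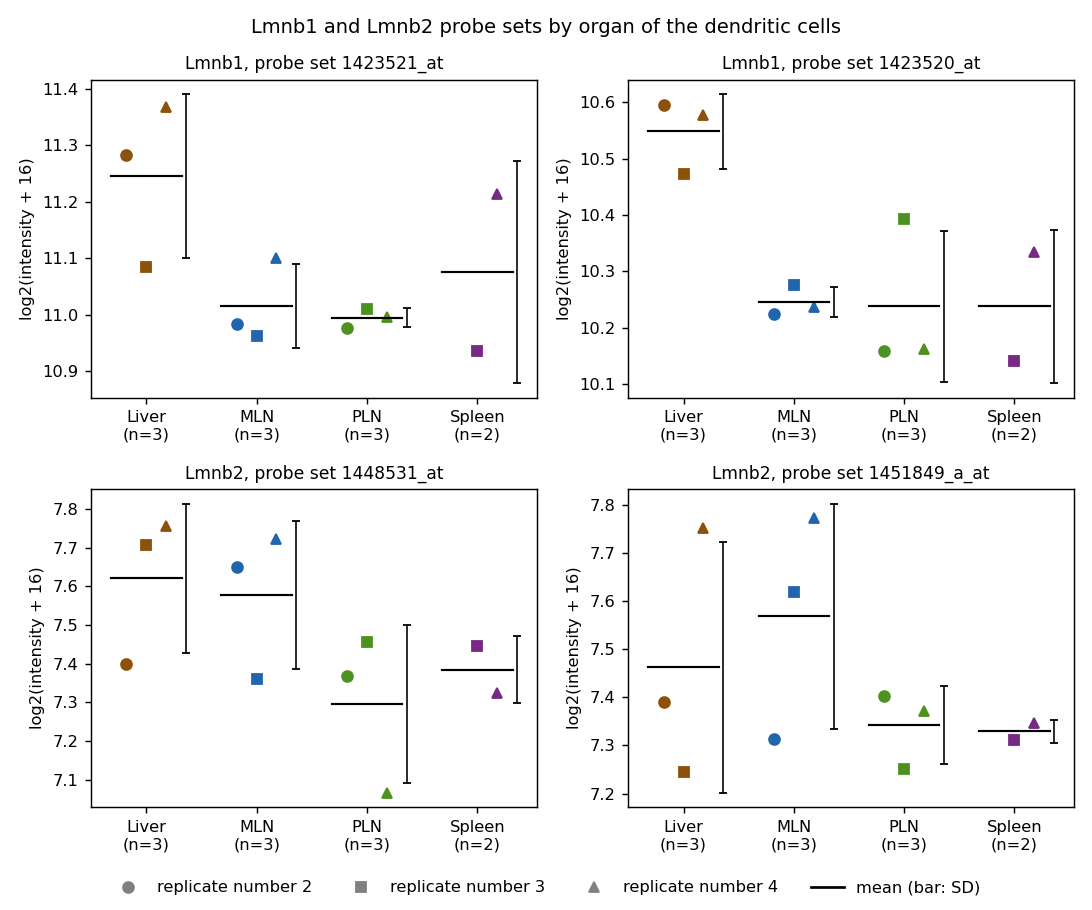
Levels of the 2 Lmnb1 (top) and 2 Lmnb2 (bottom) probe sets, as log2(intensity + 16) on the vertical axes with a scale per panel, by organ of the DCs; points are arrays with their replicate number as the symbol, lines means and bars SD. Liver arrays are highest at Lmnb1 1423520_at, at 10.47 to 10.60; at 1423521_at liver lies above PLN and overlaps spleen and MLN, and at Lmnb2 every pair of organs overlaps.

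The lamin probe sets were also compared with each other over the 11 arrays, after the mean of the arrays of the same number had been subtracted; these values share their arrays and are descriptions. The 2 brighter Lmna probe sets had Pearson r = 0.81, and 1421654_a_at had -0.51 with 1452212_at and -0.18 with 1426868_x_at. The 2 Lmnb1 probe sets had r = 0.96, and the 2 Lmnb2 probe sets 0.43. Between genes, 1421654_a_at had r = 0.48 and 0.47 with the Lmnb1 probe sets and -0.17 and -0.55 with those of Lmnb2. The agreement was therefore close within Lmnb1, partial within Lmna and loose within Lmnb2.

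The genes most like Lmna were found by the same measure among 7682 genes, each read by its brightest probe set. The 8 highest were Sema4a (r = 0.98), Smad1, Trpv2, Reck, Klrc1, Hid1, Prnp and B3gnt5 (0.94). Sema4a encodes a semaphorin of immune cells, Smad1 a transducer of bone morphogenetic protein signals, Trpv2 a calcium channel, Reck a membrane-anchored inhibitor of matrix metalloproteinases, Klrc1 an inhibitory receptor of the NKG2 family, Prnp the prion protein and B3gnt5 a glycosyltransferase. The 5 lowest were Stra6 (-0.95), Lztfl1, Klhl22, Enpp4 and Arfgap1 (-0.93). Stra6 is a membrane receptor for retinol-binding protein that was first described as a gene stimulated by retinoic acid; Enpp4 is an ecto-enzyme, Klhl22 an adaptor of a ubiquitin ligase and Arfgap1 a regulator of Golgi transport. Since Lmna is low in the MLN arrays, genes that differ there are favoured by this measure, and the MLN arrays stand apart from the other 8. Over those 8 arrays r was 0.88 for Sema4a, 0.70 for Smad1, 0.69 for Reck, 0.67 for Klrc1, 0.59 for Hid1 and 0.56 for Trpv2, but 0.11 for Prnp and -0.04 for B3gnt5. On the negative side it was -0.92 for Arfgap1, -0.80 for Klhl22 and -0.78 for Stra6, and -0.42 and -0.30 for Enpp4 and Lztfl1. With nothing subtracted for the number, r over the 11 arrays was 0.83 for Sema4a and 0.89 for Smad1, but 0.10 for Reck, 0.38 for Trpv2, 0.56 for Hid1 and 0.60 for B3gnt5, so these 4 values depended on subtracting the number. By rank within numbers, Spearman rho was lowest in size for B3gnt5, at 0.44, and Enpp4, at -0.62. Only 2 of the genes named here would have been named by rank, so the choice of names depended on the measure. Among all 7682 genes, 129 had r above 0.8 over the 11 arrays and 87 below -0.8.

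Sema4a was highest in liver and lowest in MLN in every number, as Lmna was, while spleen was above PLN for Sema4a in number 4 and below it for Lmna. Its levels were 10.50, 10.63 and 10.98 in liver for numbers 2, 3 and 4, 8.65, 8.95 and 9.38 in MLN, 9.90, 10.17 and 10.49 in PLN, and 10.16 and 10.72 in spleen. The MLN arrays were below all others, as held for 0.613% of the tested probe sets, and a second Sema4a probe set had r = 0.98 with Lmna. Stra6 ran the other way, with 7.74, 8.34 and 8.01 in MLN against 6.03, 6.11 and 6.23 in liver, 7.13, 6.87 and 5.65 in PLN, and 6.67 and 6.31 in spleen. Its MLN arrays were above all others, as held for 0.425% of the tested probe sets. Stra6 entered the test only through MLN, with a mean of 8.03 there. Its means of 6.12 in liver, 6.55 in PLN and 6.49 in spleen lay under 6.76, the lowest mean tested. Sema4a and Stra6 were both named for their r with Lmna, which was low in MLN, so these separations are no added result. A second Klrc1 probe set had r = 0.91 and a second Lztfl1 probe set -0.81, whereas the second probe sets of Prnp, B3gnt5 and Smad1 had 0.07, 0.18 and 0.31.

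**Figure D4:**
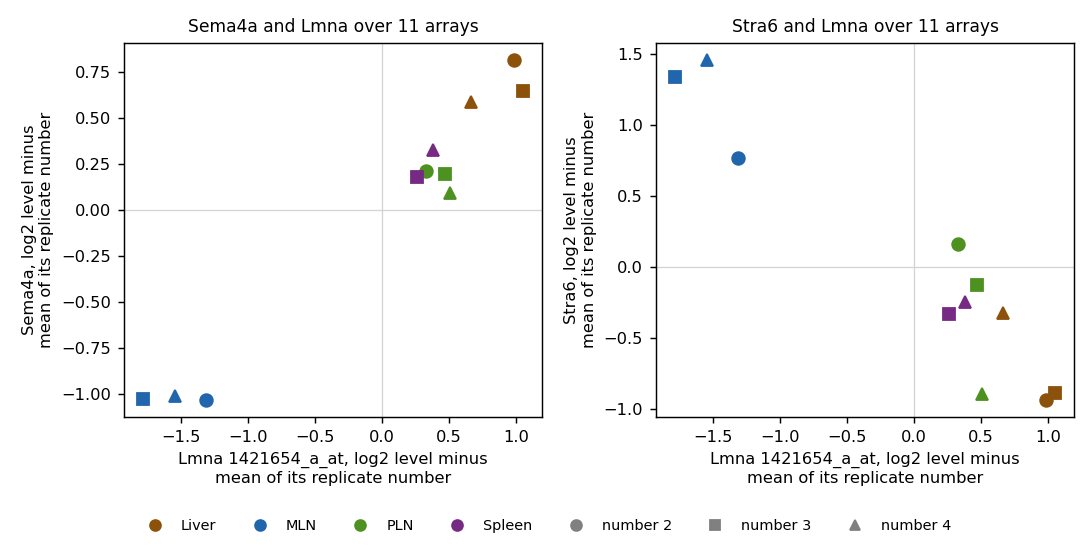
Sema4a (left) and Stra6 (right) on the vertical axes against Lmna 1421654_a_at on the horizontal axes, each as log2 level minus the mean of the arrays of the same replicate number, over 11 arrays; colours give the organ of the DCs and symbols the number. The 3 MLN arrays stand apart in both panels, low for Sema4a and high for Stra6.

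Lmnb1 had other neighbours. The 5 genes of highest r with 1423521_at were Prcp (0.99), a carboxypeptidase, Asf1b, a histone chaperone of replication, Nek2, a centrosomal kinase, Papolg, a poly(A) polymerase, and Kif23 (0.97), a kinesin of cell division. These 5 values moved little without the MLN arrays, at 0.98 to 0.99. Lmnb1 and all 5 genes were highest on average in liver, however, and the liver arrays stayed in. The values thus do not show whether r holds without the liver arrays, which was not analysed here. With nothing subtracted for the number, r was 0.40 for Prcp and Nek2, 0.47 for Asf1b, 0.59 for Papolg and 0.84 for Kif23. High values were common here. Among all 7682 genes, 300 had r above 0.8 with 1423521_at and 285 below -0.8, against 129 and 87 for Lmna. Kif23 had mean levels of 10.11 ± 0.14 in liver, 9.72 ± 0.09 in MLN, 9.69 ± 0.22 in PLN and 9.80 ± 0.09 in spleen, and Asf1b 10.78 ± 0.05, 10.48 ± 0.15, 10.42 ± 0.21 and 10.54 ± 0.07. The 14 tested genes of a proliferation list, read from the same arrays, had a median liver difference of 0.17, against 0.01 over all tested probe sets. Of these 14, 0 passed the F-test. Ccnb2, a mitotic cyclin, differed by 0.31 (SE 0.11) in liver, Mki67, the Ki-67 antigen, by 0.24 (SE 0.11) and Ccna2 by 0.21 (SE 0.09). These 3 had the smallest F-test p of the list, and limma gave each an adjusted p = 0.99997 in liver.

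Other parts of the nuclear envelope were read through lists of genes, 8 in all with 80 tested genes. In limma's F-test 0 of the 80 passed without the block (0 also at an unadjusted p under 0.05, which 2.63% of all tested probe sets reached), and 1 with the block, Plec, against 0.0164% and 0.801% of all tested probe sets. List values that follow are differences without the block unless stated. The lamin processing enzymes had a median MLN difference of -0.02 over 6 genes, against 0.0004 over all tested probe sets. Among them were the farnesyltransferase subunits Fntb, at 0.26 (SE 0.12), and Fnta, at -0.05, and the methyltransferase Icmt, at -0.04. None of the 6 passed in either fit, and the protease Zmpste24, which cuts prelamin A, stood at -0.0040. The lamin-bound chromatin factors had a median of -0.05 over 7 genes, with Rb1, the retinoblastoma protein, at -0.14, Cbx5, a heterochromatin protein, at -0.13 and Ctcf at 0.03. The nuclear pore list had a median of -0.02 over 23 genes, with Nup54 at -0.17, Nup50 at 0.18 and Nup153 at -0.16. No member of these lists was called for any organ in either fit.

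Sun2 and Plec, which join the lamina or intermediate filaments to the rest of the cell, were lower in MLN cultures, though they passed only with the replicate number as a block. Sun2, an inner membrane protein that binds lamins, had levels of 10.35, 10.08 and 10.79 in MLN for numbers 2, 3 and 4, against 10.99, 10.35 and 11.23 in liver, 10.57, 10.20 and 11.02 in PLN, and 10.36 and 11.30 in spleen. The groups overlapped, but within each number MLN was the lowest. Its MLN difference was -0.35 (SE 0.26; limma adjusted p = 0.9995, with 0.0491% called lower) without the block and -0.36 (limma adjusted p = 0.0399) with it, where 0.425% of the tested probe sets were called lower. Plec, the cytolinker plectin, had 9.01, 9.24 and 10.18 in MLN, 9.60, 9.68 and 10.85 in liver, 9.32, 9.40 and 10.52 in PLN, and 9.53 and 10.74 in spleen. It too was lowest in MLN within each number, with a difference of -0.50 (SE 0.39; limma adjusted p = 0.9995) without the block and -0.42 (limma adjusted p = 0.0157) with it. In liver Plec was higher with the block by 0.34 (limma adjusted p = 0.0456), where 0.262% were called higher, but a second Plec probe set stood at -0.07 in liver and at -0.32 in MLN. Without the block and with 1 array left out, the MLN difference ran from -0.54 (without the MLN array numbered 4) to -0.19 (without the MLN array numbered 3) for Sun2. For Plec it ran from -0.84 (without the MLN array numbered 4) to -0.26 (without the MLN array numbered 2). With the block, both MLN calls were lost without the MLN array numbered 2 (adjusted p = 0.264 for Sun2 and 0.121 for Plec), the MLN array numbered 4 (0.268 and 0.181) or the spleen array numbered 4 (0.104 and 0.0501). Of the 11 fits with 1 array left out, Sun2 passed in 2, those without the liver or the spleen array numbered 3, and Plec in 8. Neither passed with the number as a random block (0.295 and 0.379), where 0.319% were called lower.

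The remaining members of those lists did not pass. In the list of the LINC complex, the bridge between lamina and cytoskeleton, Sun1 stood at 0.20 and Syne1 at -0.08 in MLN. In the inner nuclear membrane list, with a median of -0.0001 over 9 genes, nurim (Nrm) stood at -0.40 (SE 0.19; limma adjusted p = 0.0631 with the block), Emd, the lamin-binding protein emerin, at -0.14 and Tor1aip1 at 0.01. Vim, the main cytoplasmic intermediate filament of T cells, stood at -0.09 and Nes at 0.19. The actin and SRF list, of genes tied to nuclear mechanics, had a median MLN difference of -0.15 over 12 genes, against 0.0004 over all tested probe sets. In it Cnn2 stood at -0.29, Vcl at -0.18 and Egr1 at -0.15.

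**Figure D5:**
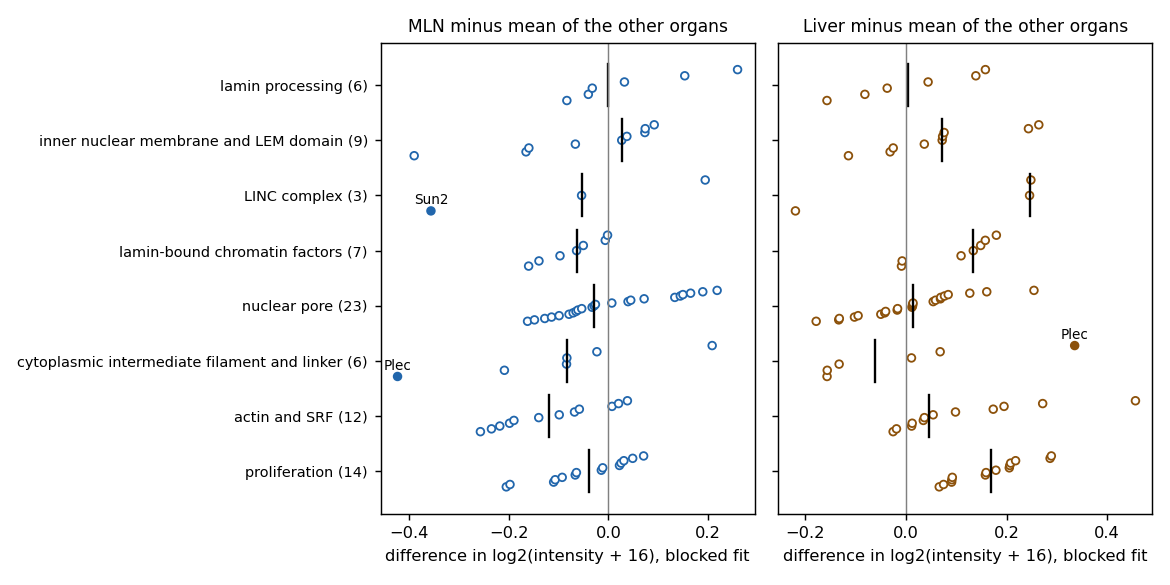
Difference in log2(intensity + 16) of MLN (left) and liver (right) from the mean of the other organs in the fit with the replicate number as a block, on the horizontal axes, for the tested genes of 8 lists (numbers in brackets). Points are genes, filled where the adjusted p is under 0.05, and lines are list medians; Sun2 and Plec are filled on the MLN side and Plec on the liver side.

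T cell transcripts were abundant in all groups, with Cd3e at mean intensities of 1917 to 2541. Summed over 9 T cell markers, intensities were 23653 to 30940 in MLN, 24182 to 33325 in liver, 24406 to 25808 in PLN and 24123 to 29489 in spleen. Cells of other kinds that make A-type lamins could be present, and their markers were read beside Lmna. The 9 fibroblast and stromal markers summed to 512 to 765 in liver, 643 to 1021 in MLN, 697 to 1085 in PLN and 780 to 1042 in spleen. The largest part was Lum, with mean intensities of 243 in liver, 482 in MLN, 492 in PLN and 522 in spleen. Other members went either way between liver and MLN, such as Vcam1 at 107 and 64, and Sparc at 20 and 45. The 9 macrophage markers summed to 2840 to 3847 in liver, 2370 to 3228 in MLN, 2607 to 3283 in PLN and 3384 to 4109 in spleen. This sum was lowest on average in MLN, with overlap, and was mostly Ctss (mean intensity 2110 in MLN and 2578 in liver). Cd14, Lyz2 and Csf1r were also lowest on average in MLN, whereas Cd68, Adgre1, Clec4f, Marco and Mrc1 were not. The 4 NK cell markers summed to 2755 to 6488 in liver, 1880 to 4748 in MLN, 2195 to 4585 in PLN and 2216 to 5461 in spleen, with means of 4409, 2875, 3083 and 3838. Most of this sum was Klrd1 (mean intensity 3543 in liver and 2170 in MLN), and Ncr1 and Klra8 were not lowest in MLN. The 7 granulocyte markers had means of 390 in liver, 267 in MLN, 324 in PLN and 487 in spleen. Both sums were thus lowest on average in MLN, as Lmna was, and overlapped between liver and MLN. The 12 DC markers overlapped widely, from 10713 to 16217 in MLN and from 8178 to 16628 in the other organs. The 6 B cell markers, mostly Ighm, had mean sums of 10568 in liver, 11406 in MLN, 10550 in PLN and 8929 in spleen, so that MLN was highest on average. The 7 endothelial markers had mean sums of 589 in liver, 595 in MLN, 601 in PLN and 622 in spleen. Hepatocyte markers summed to at most 133. No tested marker was called for any organ without the block, where at most 0.0491% of the tested probe sets were called in 1 direction. With the block 3 were called. Cd2, an adhesion receptor of T cells, was lower in MLN by -0.52 (limma adjusted p = 0.00784), where 0.425% were called lower. The Cd2 call was lost without the MLN array numbered 2 (0.0590) or 3 (0.0748). Cd14, a coreceptor for bacterial lipopolysaccharide on monocytes, was lower in MLN by -1.14 (limma adjusted p = 0.0432), and passed only without the liver array numbered 3 or the PLN array numbered 2 when 1 array was left out, at adjusted p up to 0.293. Cd14 entered the test through liver (mean 7.60) and spleen (7.79). Its means in MLN (6.24) and PLN (6.68) lay under 6.76, the lowest mean tested. Lum, the stromal matrix protein lumican, was lower in liver by -0.91 (limma adjusted p = 0.00398), where 0.834% were called lower, and stayed called with any 1 array left out. No marker was at 0, and Marco, Camp, Pdgfrb, Vwf and Fgb had mean intensities under 16. The part of any of these cells in the Lmna values was not tested.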

How the data were processed

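The deposited table holds 1 linear intensity per probe set for each of 11 arrays. The authors had scaled the arrays to a common trimmed mean intensity (500.2 after trimming 2% at each end, read from the values); the software and the summarisation of probes were not given in the sources used here. Of 22690 probe sets, 64 controls were left out; 20380 had 1 gene symbol in the platform annotation, 691 several and 1555 none, and 20351 symbols were matched by gene identifier to the reference GRCm38.p6.

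Intensities were transformed as log2(intensity + 16) and quantile normalized, since array medians spanned 0.22; pairs of arrays correlated at 0.966 to 0.985 and none held identical values. Tests used limma 3.58.1 in R 4.3.3 (lmFit, eBayes with a variance trend, Benjamini-Hochberg at 0.05) over the 12228 single-symbol probe sets in the upper 60% by mean, above an intensity of about 92.5. The fit without a block had 7 residual degrees of freedom. Each organ mean was compared with the average over the other 3 organs, and a further fit tested the replicate number with the organ in the model. Scripts were tested on simulated data.

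The numbers pair the arrays: with organ means removed, the 15 array pairs of the same number correlated at 0.367 to 0.704 and the 30 pairs of different number and organ at -0.662 to 0.08. A fit that takes the number as a block (5 residual degrees of freedom) is an alternative, quoted where it changes the call of a list or marker gene, and for the B-type lamins.

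Lists were described by their counts and medians, by each gene's brightest probe set. Named were all lamin probe sets, the 8 genes of highest and 5 of lowest correlation with Lmna, the 5 of highest with Lmnb1, and per list the members passing the F-test, filled to 3 by smallest p; other genes were chosen after their values were seen. The members and lists were chosen with earlier results of these data known. The number of arrays limits the precision.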

Additional observations from a re-analysis of the deposited data

How the results depend on the processing

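At Lmna 1421654_a_at the MLN difference of -2.09 ran from -2.24 to -1.96 when each array was left out in turn, and moved by more than the spread between arrays only when 64 was added before taking logarithms (-1.77); at 1425472_a_at it ran from -0.81 to -0.40. Normalization as deposited, median centring, an added 1 and the replicate block kept both negative. The liver differences of Lmnb1 kept their sign and did not pass in the alternatives to the fit without a block, at 0.16 to 0.30 and 0.28 to 0.35 with an array left out; with the block and without PLN replicate 3, a combination added after the data were seen, 1423520_at passed (adjusted p = 0.0435). The drop of Lmna from number 3 to number 4 ran from -0.52 to -0.31 with an array left out and did not pass without the organ term (-0.41). The organ F-test called 2 probe sets; the count was 4 with intensities as deposited, 1 without the filter, 98 with the replicate block, 64 with a random block, and 0 to 1 with an array left out. For MLN 8 were called, 113 with the replicate block, 72 with the random block and 2 to 9 with an array left out. For liver 0 were called (1 without the filter, 134 with the replicate block, 42 with the random block). Among list genes 0 passed the F-test and 1 with the replicate block. The test of replicate numbers called 5421 probe sets, and 3576 with 1 probe set per gene, where fewer were tested. Of the 13 genes named for likeness to Lmna, 10 were named with intensities as deposited, 3 with nothing subtracted and 2 by rank correlation. The cause of these changes was not tested.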
